A study of Mus musculus with 6 samples.

Results

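The ubiquitin-specific proteases were followed in memory B cells from mouse spleen, as all 58 gene symbols in the deposited table of 35186 that start with Usp and a digit. The tested cells carried the genotype Nix-/-Bnip3-/- (DKO, 3 libraries) and the cells they were set against were wild type (WT, 3 libraries). Both came from strain C57BL/6J and were sorted for specificity to the hapten NP, with about 1000 cells per library. Nix is the protein of the gene Bnip3l. Nix and Bnip3 sit in the outer mitochondrial membrane and recruit the autophagy machinery, so that mitochondria are degraded (mitophagy). Whether the deletion was limited to B cells, which exons it removed and the age of the mice are not stated in the labels used here. Nor is it stated that replicate libraries came from different mice, and p-values then measure only the spread between these libraries, which may be technical. In bulk libraries, fewer cells that express a gene and less RNA per cell cannot be told apart.

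Ubiquitin-specific proteases remove ubiquitin from other proteins and so reverse the work of ubiquitin ligases. They are the largest family of deubiquitinases, and members act on histones, DNA repair proteins, endosomal receptors, immune signalling proteins and mitochondria. In parkin-dependent mitophagy, the ligase parkin marks damaged mitochondria with ubiquitin. Usp30, anchored in the outer mitochondrial membrane, removes these marks, and in human cells USP15 also opposes parkin on mitochondria while USP8 removes ubiquitin from parkin itself. Usp39 is a member by sequence that lacks the catalytic residues and works in the spliceosome.

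The family was selected on the counts of Usp39, known to be high in the DKO libraries and almost absent from the WT libraries, and on the known role of Usp30, so that the values of Usp39 between the genotypes are given as a description with no test. The symbol rule itself did not use values. It also took in Usp6nl, which is a regulator of Rab proteins and not a protease, and Usp46os1 and Usp46os2, which are noncoding transcripts opposite Usp46. In GENCODE mouse release M21 (build mm10), all 58 symbols matched 1 gene, on 17 chromosomes. Of these, 56 were protein coding, 5 were on the X chromosome and Usp9y was on the Y chromosome. The 5 Usp17 genes lie on chromosome 7 and are near-identical copies, so their counts are uncertain. The exons of 22 members overlap those of another gene, and without a stated strand setting such reads cannot be told apart.

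The promoters of the 3 members tied to mitophagy are shown because the comparison sets these genes against the rest of the family. Each window runs 5′ to 3′ on the gene's strand from 250 bases before to 50 after the start that RefSeq gives (build GRCm38.p6), and windows were found for 44 of the 58 symbols. Capitals mark letter matches on either strand to CCGGAAG, the core of ETS factor sites, or to GGGCGG, the GC box. The matches do not overlap each other in the windows shown.
Usp30, chr5:114100083-114100382, + strand: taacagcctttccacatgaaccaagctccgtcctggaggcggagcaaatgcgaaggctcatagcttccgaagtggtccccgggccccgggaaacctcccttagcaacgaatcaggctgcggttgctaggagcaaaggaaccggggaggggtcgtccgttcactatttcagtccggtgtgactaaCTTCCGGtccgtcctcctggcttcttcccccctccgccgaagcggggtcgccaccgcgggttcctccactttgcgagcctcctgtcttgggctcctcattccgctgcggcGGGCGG
Usp8, chr2:126707078-126707377, + strand: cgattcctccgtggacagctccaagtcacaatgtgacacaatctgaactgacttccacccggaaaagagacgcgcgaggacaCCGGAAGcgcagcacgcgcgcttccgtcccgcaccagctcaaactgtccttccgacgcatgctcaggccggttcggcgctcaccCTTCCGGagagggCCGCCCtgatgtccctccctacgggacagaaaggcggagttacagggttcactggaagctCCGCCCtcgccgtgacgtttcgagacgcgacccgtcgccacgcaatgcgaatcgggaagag
Usp15, chr10:123196970-123197269, - strand: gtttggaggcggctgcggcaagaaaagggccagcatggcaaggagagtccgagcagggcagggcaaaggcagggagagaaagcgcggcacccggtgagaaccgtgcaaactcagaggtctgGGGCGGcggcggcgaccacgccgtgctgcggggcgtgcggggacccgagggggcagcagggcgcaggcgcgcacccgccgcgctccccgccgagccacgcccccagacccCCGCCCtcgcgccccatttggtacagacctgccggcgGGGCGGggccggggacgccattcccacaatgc
The Usp30 window holds 1 ETS core and 1 GC box, the Usp8 window 2 of each, and the Usp15 window 3 GC boxes. None of these 3 windows holds the letters CCAAT or the E-box CACGTG. Over all 32851 windows, 8.86% hold the ETS core, 35.7% the GC box, 37.4% the CCAAT box and 7.15% the E-box. Over the 45 windows of the family these shares were 17.8%, 62.2%, 33.3% and 11.1%. The RefSeq start of Usp30 lies inside the longer gene that GENCODE gives (chromosome 5, 114065461 to 114124720), whose exons overlap 490 bases of Svop and Alkbh2 on the opposite strand.

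Libraries held between 444461 and 517057 counts for DKO and between 312908 and 500527 for WT. Between 23580 and 24787 symbols had a count in the DKO libraries, against 17831 to 18486 in the WT libraries. Once scaled to the effective library size after TMM (normalized CPM), 1 count was worth 1.84 to 2.26 normalized CPM in DKO and 3.86 to 5.25 in WT. TMM factors were 1.28 to 1.38 for DKO and 0.695 to 0.812 for WT. Bnip3l had 10, 16 and 41 counts in the DKO libraries and 1, 8 and 0 in the WT libraries, and Bnip3 had 2, 24 and 11 counts in DKO and 25, 62 and 6 in WT. The mean of Bnip3l thus went against the label, and every direction below is between libraries labelled DKO and WT. Markers defining B cells were sparse in part: the 7 followed summed to between 247 and 316 normalized CPM in DKO and between 194 and 366 in WT. Of these, 4 had enough counts to be tested, with 2 log2 fold changes above 0 and 2 below. Ms4a1 had 42, 70 and 65 counts in DKO and 28, 0 and 8 in WT. Cd79a, a subunit of the B cell receptor, was too sparse to be tested, with 0, 2 and 4 counts in DKO and 3, 0 and 0 in WT. The 6 memory B cell markers summed to between 88.4 and 147 normalized CPM in DKO and between 27.0 and 126 in WT. Plasma cell markers summed to between 58.1 and 335 in DKO and between 99.2 and 189 in WT, and erythroid markers to between 14.7 and 22.6 in DKO and between 58.0 and 120 in WT. Markers of T cells summed to between 120 and 193 normalized CPM in DKO and between 178 and 309 in WT. Of the 3 T cell markers tested, Cd3e and Cd3g lay above 0 and Cd4 below. Cd4 had 64 counts in WT library 2, and Cd3d, which was not tested, had 33 in WT library 3. The 7 markers of monocytes, macrophages and neutrophils, of which Cd14 had 1 count in all, summed to between 373 and 759 normalized CPM in DKO and between 57.5 and 357 in WT. Of the 3 tested, Lyz2 (log2 fold change 3.15) and Itgam (2.41) lay above 0 and Csf1r (-0.89) below. Among those not tested, the means of Emr1, S100a9 and Cd14 were lower in DKO and that of S100a8 was higher. The part of other cells in the results below was not tested.

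Members took 0.484%, 0.432% and 0.461% of the counts in DKO libraries 1, 2 and 3 (95% exact binomial intervals 0.464 to 0.505, 0.415 to 0.451 and 0.443 to 0.480). In WT libraries 1, 2 and 3 they took 0.316%, 0.410% and 0.353% (0.297 to 0.336, 0.393 to 0.428 and 0.333 to 0.374). All 3 DKO shares lay above all 3 WT shares, and the intervals, which cover counting error only, of DKO library 2 and WT library 2 overlapped. These are shares of unscaled totals. With library totals alone as the scaling, 23.8% of all genes tested were higher in every DKO library than in every WT library, and 2.51% were lower. Of the 58 members, 54, 56 and 52 had at least 1 count in DKO libraries 1, 2 and 3, and 46, 53 and 47 in WT libraries 1, 2 and 3. The filter on low counts left 40 members to be tested. A member could pass it through 1 group alone, so the counts and medians over these 40 describe them and no more.

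**Figure D1:**
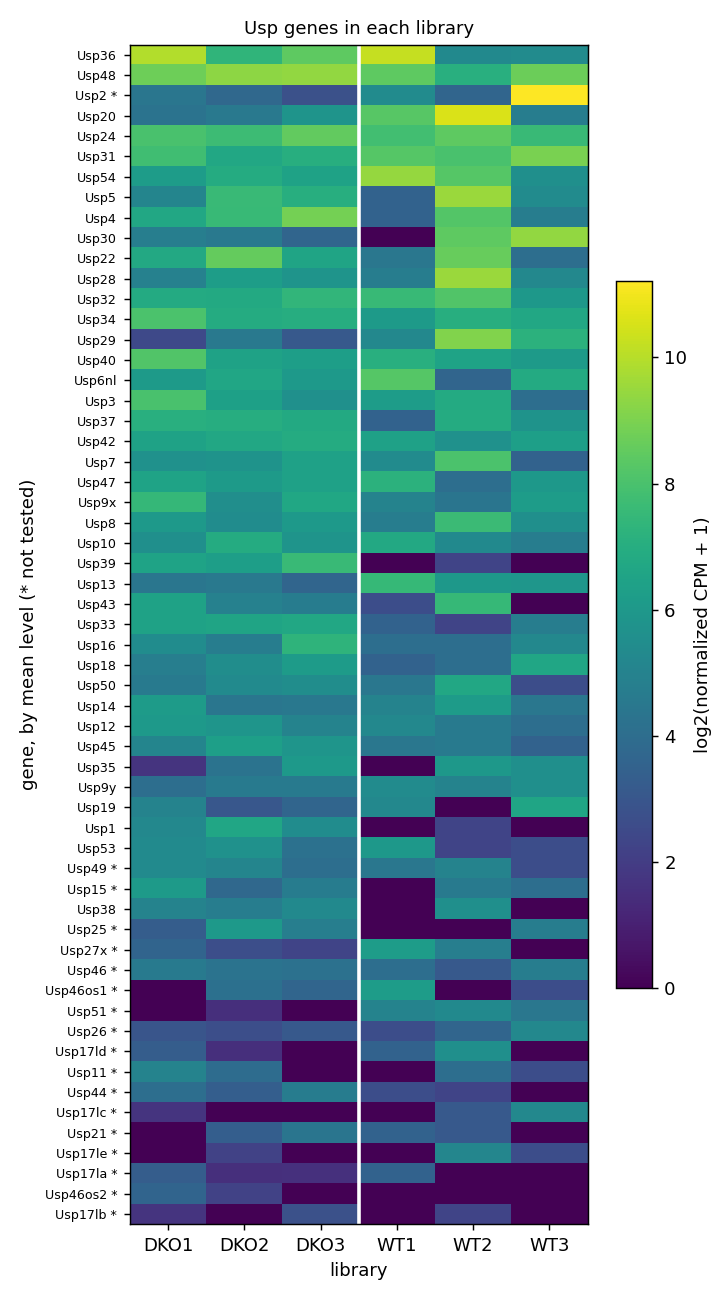
Level of each of the 58 Usp symbols in each library, as log2(normalized CPM + 1), with genes ordered by their mean over the 6 libraries and the 3 DKO libraries left of the white line. Usp39 is among the genes with 0 counts in WT libraries 1 and 3, and single bright cells such as Usp2 in WT library 3 stand out in the WT columns.

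The levels of the family were far more alike among DKO libraries than among WT libraries. Across the 40 members tested, the Spearman correlation was 0.699, 0.669 and 0.732 for the 3 pairs of DKO libraries, 0.148, 0.424 and 0.188 for the 3 pairs of WT libraries, and between 0.0378 and 0.366 for the 9 pairs of a DKO and a WT library. Over all 8895 genes tested it was 0.466 to 0.496 within DKO and 0.152 to 0.157 within WT. These are correlations across genes within pairs of libraries, which share gene length and the depth of each library, and genes are not independent replicates. The median SD of log2(normalized CPM + 1) over the 3 libraries of a group was 0.65 in DKO and 1.54 in WT for the members, and 0.75 in DKO and 1.69 in WT for all genes tested. Of the 40 members, 0 had a count of 0 in a DKO library and 7 had one in a WT library, and over all genes tested these shares were 1.83% in DKO and 21.7% in WT. These values hold only for genes kept by the filter on low counts. A gene could pass that filter through the DKO libraries alone, which makes counts of 0 in DKO rarer among those kept. The WT libraries also had the smaller effective sizes, and the part of depth in these correlations was not tested.

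**Figure D2:**
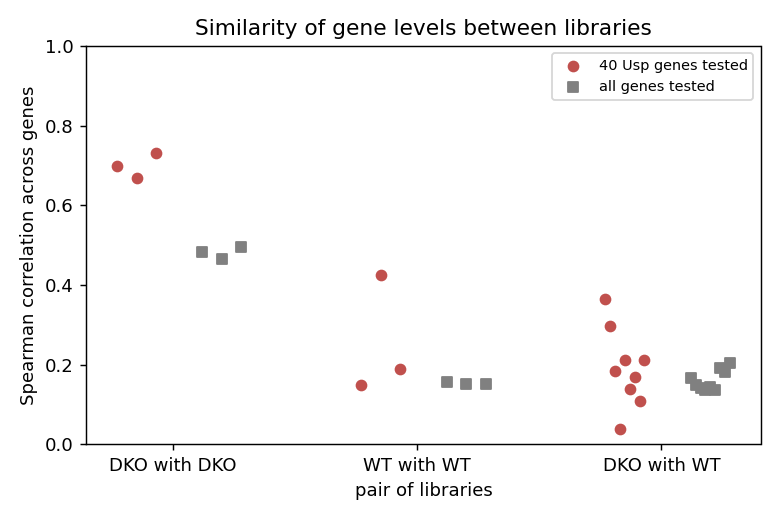
Spearman correlation of normalized CPM for each pair of libraries, across the 40 Usp genes tested (circles) and across all 8895 genes tested (squares). Circles for the 3 DKO pairs lie between 0.669 and 0.732, above all WT pairs and all pairs of a DKO and a WT library.

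In 13 of the 40 members (32.5%), 1 library held over 50% of the summed normalized CPM, against 29.7% of all genes tested. That library was WT library 2 for 6 of them (Usp5, Usp7, Usp20, Usp28, Usp29 and Usp43), WT library 1 for Usp13 and Usp54, WT library 3 for Usp19 and Usp30, DKO library 3 for Usp16 and Usp39, and DKO library 2 for Usp1. The strongest case was Usp2, a circadian and cell cycle deubiquitinase. It had 9, 7 and 3 counts in DKO libraries 1, 2 and 3, and 8, 3 and 453 counts in WT libraries 1, 2 and 3. WT library 3 alone held 96.3% of its normalized CPM, and its other 5 values lay between 5.81 and 41.8 normalized CPM. Usp2 did not pass the filter on low counts and was not tested.

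Between genotypes, edgeR's quasi-likelihood test at an adjusted p of 0.05 called 0 of the 40 members and 0% of all 8895 genes. At an unadjusted p under 0.05 there were 2 members higher and 4 lower in DKO among the 39 other than Usp39, and over all genes 5.49% were higher and 6.59% lower. Log2 fold changes, DKO over WT, ran between -4.34 and 6.03, with 22 members above 0 and 18 below, as against 45.5% of all genes tested above 0. The median was 0.15 for the members and -0.17 for all genes tested. With the size factors of DESeq2, these medians were 0.030 and -0.29, and with library totals alone 0.90 and 0.62. Relative to the median of all genes, that of the members was higher by 0.32 with TMM, 0.32 with DESeq2 size factors and 0.29 with totals. Without WT library 3 this gap was -0.036 and without WT library 2 it was 0.57. The median of the members was 0.13 without Usp39. DESeq2, run as an alternative, called 1 member higher and 4 lower among those other than Usp39, where it called 2.57% of all genes higher and 4.51% lower. The higher one was Usp1 (DESeq2 adjusted p = 0.0190), which passed the filter on low counts through DKO alone. The lower ones were Usp29 (0.00290), Usp20 (0.0108), Usp30 (0.0183) and Usp13 (0.0414). Limma-voom called 0 members and 0 of all genes.

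**Figure D3:**
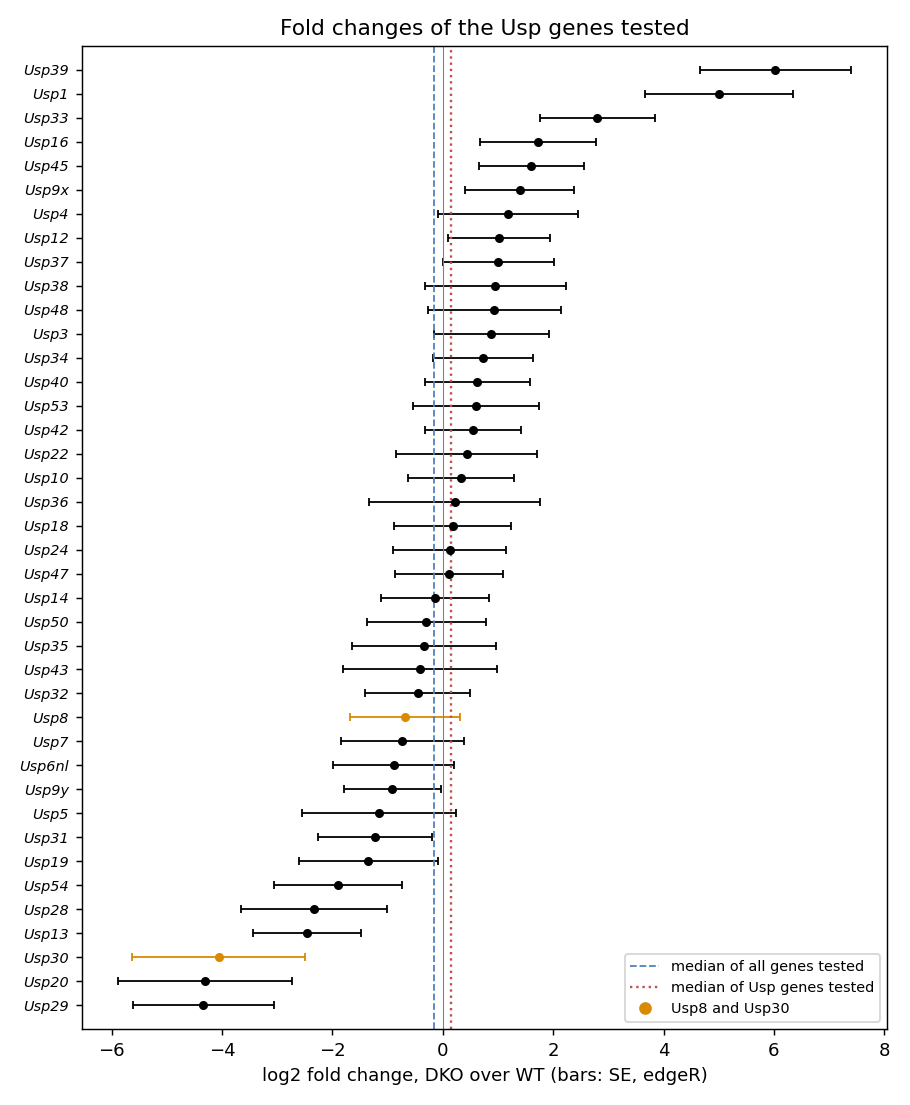
Log2 fold change, DKO over WT, of the 40 Usp genes tested, with edgeR standard errors as bars and the medians of these genes (0.15) and of all genes tested (-0.17) as vertical lines. Usp39 and Usp1 lie farthest to the right at 6.03 and 5.001, and Usp29, Usp20 and Usp30 farthest to the left.

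Leaving out Usp39, the groups did not overlap in normalized CPM for 5 of 39 members higher in DKO (12.8%), where this held for 12.8% of all genes, and for 4 lower (10.3%), where it held for 6.39% of all genes. Higher were Usp1, Usp33, Usp42, Usp45 and Usp48, and lower were Usp9y, Usp13, Usp29 and Usp31. Of these, Usp1, Usp33 and Usp45, like Usp39, passed the filter on low counts through DKO alone. With library totals alone 12 of 39 were higher and 1 lower, where this held for 23.8% and 2.51% of all genes. Without WT library 2, which let more genes pass the filter, 13 of 42 were higher and 7 lower, where it held for 22.3% and 11.4% of all genes.

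Usp39, the splicing member, had 40, 42 and 99 counts in DKO libraries 1, 2 and 3, and 0, 1 and 0 counts in WT libraries 1, 2 and 3. All 3 DKO libraries lay above all 3 WT libraries, where a count of 0 allows up to 15.7 and 15.8 normalized CPM in WT libraries 1 and 3 (3 counts each). Means were 120 ± 62.6 normalized CPM in DKO and 1.29 ± 2.23 in WT (SD, n = 3 each). The ratio of summed counts, scaled by effective library size, was 77.2, with a 95% counting interval of 13.7 to 3067 that rests on 1 WT count and covers counting error only. Since the family was selected on these counts, the interval describes them and is no test. The fitted log2 fold change was 6.03 (SE 1.36), or 8.51 without WT library 2. Its gene (chromosome 6, 72318678 to 72345184, minus strand) has 2445 exonic bases, none shared with another gene. Per kilobase of exon, Usp39 averaged 49.0 normalized CPM in DKO, where it ranked 3 of 58 after Usp36 and Usp48, and 0.527 in WT, where it ranked 56.

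Usp39 protein belongs to the tri-snRNP, the particle that brings the U4, U6 and U5 snRNAs to the spliceosome. Of 16 partner genes followed, 13 were tested, of which 9 lay above 0 and 4 below, and 0 passed the edgeR test (median log2 fold change 0.78). This median was 0.65 with the size factors of DESeq2 and 1.52 with library totals alone. Snrnp40, a protein of the U5 particle, had 77, 65 and 40 counts in the DKO libraries and 1, 1 and 7 in the WT libraries (log2 fold change 3.02, SE 1.13, edgeR adjusted p = 0.390). Prpf3 of the U4/U6 particle had 292, 95 and 51 counts in DKO and 18, 10 and 1 in WT (2.75, SE 1.25, edgeR adjusted p = 0.412). The U5 helicase gene Snrnp200 had 121, 189 and 62 in DKO and 14, 18 and 12 in WT (1.85, SE 0.95, edgeR adjusted p = 0.439). These 3 genes were named for the smallest p of the 13, so their separation follows in part from that choice. In 3 of the 13 every DKO library lay above every WT library after scaling, where this held for 12.8% of all genes. Eftud2, the U5 GTPase, lay the other way at -0.87, with 495 counts in WT library 1 against 15 and 18 in the other WT libraries.

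The mitophagy-linked members had means on both sides: Usp30 and Usp8 were lower and Usp15 was higher in DKO, with overlapping groups in all 3. Usp30 had 12, 12 and 6 counts in DKO libraries 1, 2 and 3, and 0, 90 and 130 counts in WT libraries 1, 2 and 3. The DKO libraries were close together and low, and the WT libraries held both the lowest and the highest values, so that the groups overlapped. Means were 20.3 ± 7.92 normalized CPM in DKO and 343 ± 341 in WT (SD, n = 3 each), with a log2 fold change of -4.06 (SE 1.57, edgeR adjusted p = 0.390). It was -3.02 without WT library 3, and between -4.58 and -3.02 with any 1 library left out. Usp8 (chromosome 2, 126707328 to 126759297) had 28, 23 and 34 counts in the DKO libraries and 5, 52 and 9 counts in the WT libraries. WT library 2 was the highest and the other WT libraries were near or below the DKO libraries, with means of 57.2 ± 12.9 normalized CPM in DKO and 91.4 ± 95.4 in WT. The log2 fold change of Usp8 was -0.68 (SE 1.00, edgeR adjusted p = 0.791), but 0.67 without WT library 2 and 0.16 with library totals alone. Usp15 (chromosome 10, 123105006 to 123196995) had 30, 7 and 13 counts in DKO and 0, 6 and 3 counts in WT. DKO library 2, at 12.9 normalized CPM, lay below WT libraries 2 and 3, at 23.2 and 15.8, and Usp15 did not pass the filter on low counts, so it has no test. Its means were 35.3 ± 28.9 normalized CPM in DKO and 13.0 ± 11.8 in WT (SD, n = 3 each).

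Since Usp15 was not tested, the mitophagy-linked members enter the comparison of medians as Usp8 and Usp30 alone. Their median was -2.37, against 0.20 for the other 38 members tested, of which 22 lay above 0 and 16 below. The filter decided which of the 3 entered, and the difference of -2.57 became -0.94 with no filter on low counts, where Usp15 entered at 1.66. For Usp8 and Usp30 against the same other members, the difference lay between -3.24 and -2.02 with any 1 library left out. When the filter was run again on the remaining 5 libraries, Usp15 entered without WT library 1, 2 or 3 or DKO library 2, and the difference over all 3 was then between -1.54 and -0.034.

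**Figure D4:**
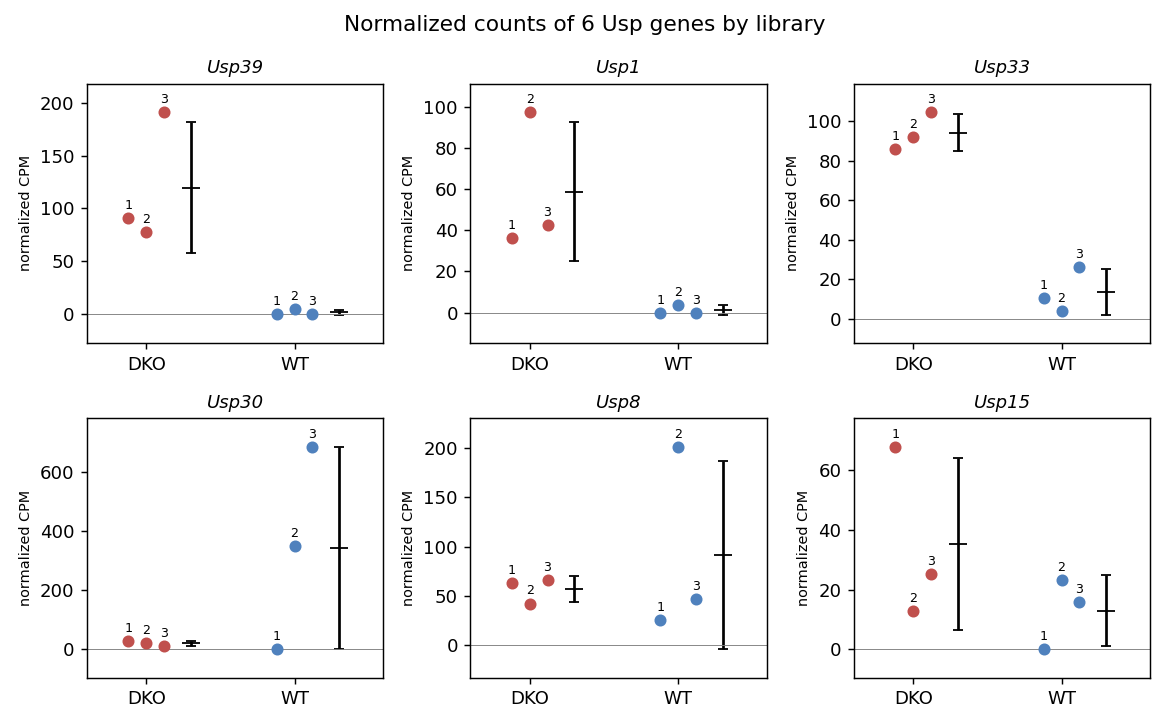
Normalized CPM of 6 Usp genes in each library, numbered by replicate, with the mean and SD of the 3 libraries beside them. Usp39, Usp1 and Usp33 are separated between DKO and WT, while Usp30, Usp8 and Usp15 overlap, with WT libraries far apart in Usp30 and Usp8.

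Of 13 genes followed in the parkin pathway on which Usp30 acts, 9 were tested, with 5 above 0, 4 below and 0 past the edgeR test (median 0.14, or 0.0020 with the size factors of DESeq2, 1.00 with library totals alone and -0.25 to 0.53 with 1 library left out). Park2, which encodes parkin, had 11, 15 and 14 counts in DKO and 10, 46 and 24 in WT (log2 fold change -2.15, SE 0.94, edgeR adjusted p = 0.404). Its scaled values in the DKO libraries all lay below those in the WT libraries. Pink1, the kinase that activates parkin, had 2, 4 and 5 counts in DKO and 5, 17 and 16 in WT, again without overlap after scaling, and was too sparse to be tested. Mul1, another mitochondrial ubiquitin ligase, was at -2.57 (SE 1.48), with 92 of its 97 WT counts in WT library 2. Rhot1, a mitochondrial substrate of parkin, lay the other way, with 131, 155 and 102 counts in DKO and 13, 28 and 20 in WT (1.47, SE 0.94, edgeR adjusted p = 0.515). Of the 9 tested, 1 was higher in DKO without overlap after scaling (Rhot1) and 1 was lower (Park2). Over all genes this held for 12.8% higher and 6.39% lower.

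Among members that act on DNA repair proteins and p53, 7 of 8 were tested, of which 5 lay above 0 and 2 below (median 0.33). This median was 1.10 with library totals alone, 1.12 without WT library 1 and 0.076 without WT library 3. Usp1, which with its cofactor Wdr48 removes ubiquitin from FANCD2 and PCNA, had 16, 53 and 22 counts in DKO libraries 1, 2 and 3 and 0, 1 and 0 counts in WT libraries 1, 2 and 3. This was the pattern of Usp39 at a lower level, with no overlap and means of 58.8 ± 33.7 normalized CPM in DKO and 1.29 ± 2.23 in WT (SD, n = 3 each). Its scaled ratio of summed counts was 38.8 (95% counting interval 6.79 to 1550, on 1 WT count and for counting error only), with a fitted log2 fold change of 5.001 (SE 1.34, edgeR adjusted p = 0.389), or 7.49 without WT library 2. Usp1 passed the filter on low counts through DKO alone, so its separation follows in part from the filter. The cofactor gene Wdr48 lay on the other side of 0, with 36, 21 and 52 counts in DKO and 20, 85 and 2 in WT (log2 fold change -1.01, SE 1.13, edgeR adjusted p = 0.719). Usp28, which acts in the DNA damage response and on Myc, had 13, 41 and 28 counts in DKO and 5, 192 and 7 in WT. WT library 2 stood far above all other libraries, and the log2 fold change of -2.33 (SE 1.32, edgeR adjusted p = 0.469) became 0.79 without it. Usp48, a nuclear enzyme and one of the most abundant members, had 189, 346 and 344 counts in DKO and 67, 35 and 80 in WT. Its groups just failed to overlap once scaled, 428 being the lowest DKO value and 420 the highest WT value in normalized CPM (log2 fold change 0.94, SE 1.20, edgeR adjusted p = 0.757). Usp7, the deubiquitinase of Mdm2 and p53, was at -0.73 (SE 1.12), with 67 counts in WT library 2 and 8 and 2 in the other WT libraries. It turned above 0 without WT library 2, with library totals alone, with limma-voom and with the replicate number as a block.

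Members of endosomes and membrane proteins included a related pair that lay on opposite sides. Usp33 and Usp20 are close paralogues that act on the same receptors in recycling. Usp33 had 38, 50 and 54 counts in DKO libraries 1, 2 and 3 and 2, 1 and 5 counts in WT libraries 1, 2 and 3. Its DKO libraries lay close together, with means of 94.2 ± 9.50 normalized CPM in DKO and 13.5 ± 11.5 in WT (SD, n = 3 each) and no overlap. Usp33 had a log2 fold change of 2.80 (SE 1.04, edgeR adjusted p = 0.390), or 3.77 without WT library 3, and its exons share 2362 bases with 3 predicted genes on the opposite strand. It passed the filter on low counts through DKO alone. Usp20 had 8, 12 and 28 counts in DKO and 60, 399 and 5 in WT. WT library 3 lay within the DKO range, and WT library 2 held 78.0% of the normalized CPM. The log2 fold change of Usp20 was -4.30 (SE 1.58, edgeR adjusted p = 0.390), or -2.37 without WT library 2. Usp12, which shares the cofactors Wdr48 and Wdr20 with Usp46, had 29, 31 and 16 counts in DKO and 7, 6 and 3 in WT, with groups that overlapped (1.02, SE 0.92, edgeR adjusted p = 0.656). Usp19, which has a form anchored in the endoplasmic reticulum, had 14, 4 and 6 counts in DKO and 7, 0 and 18 in WT, and its value of -1.35 became -0.0034 without WT library 3. The list had 5 tested genes of 7, 2 above 0 and 3 below (median -0.45, or 0.35 with library totals alone and 0.10 without WT library 2).

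The histone deubiquitinases tested, Usp3, Usp16 and Usp22, all lay above 0 under each scaling tried, with 0 past the test and 5 of the 8 on the list too sparse to be tested. Their median of 0.88 lay between 0.49 and 1.55 with 1 library left out, and Usp22 turned below 0 without WT library 1, WT library 3 or DKO library 2. Usp16, which acts on histone H2A, had 19, 14 and 81 counts in DKO libraries 1, 2 and 3 and 3, 4 and 7 counts in WT libraries 1, 2 and 3. DKO library 3 stood out and WT library 3 lay above DKO library 2 after scaling, and the log2 fold change of 1.73 (SE 1.05, edgeR adjusted p = 0.495) was 0.71 without DKO library 3. Usp22, the SAGA complex subunit, had 48, 208 and 48 counts in DKO and 4, 102 and 3 in WT (0.43, SE 1.28). Usp51 and Usp44, chosen here after their values were seen, were too sparse to be tested. Their intervals cover counting error only, not the spread between libraries, and are no test. Usp51 had 0, 1 and 0 counts in DKO and 6, 10 and 4 in WT, a scaled ratio, DKO over WT, of 0.0213 (95% counting interval 5.15e-04 to 0.133), and its groups did not overlap. Usp44, which acts at the mitotic checkpoint, had 7, 5 and 13 counts in DKO and 1, 1 and 0 in WT, a ratio of 5.33 (1.33 to 46.5). The 0 in WT library 3 allows up to 15.8 normalized CPM, above DKO library 2 at 9.20, so the groups of Usp44 are not separated at this depth.

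Members that handle free ubiquitin chains and the proteasome, Usp5, Usp13 and Usp14, lay below 0 (median -1.16), with Usp14 turning above 0 in the scalings by upper quartile and library totals, with no filter, and without DKO library 2 or 3. Without WT library 2, Usp14 could not be tested and the median of the other 2 was -0.24, Usp5 then being at 2.20. Usp5 was also above 0 with limma-voom (0.22) and with the replicate number as a block (0.44). Usp13, a relative of Usp5, had 9, 12 and 6 counts in DKO and 35, 16 and 11 in WT. All DKO libraries lay below all WT libraries, with means of 18.0 ± 5.61 normalized CPM in DKO and 101 ± 71.1 in WT (SD, n = 3 each). Usp13 was at -2.46 on the log2 scale (SE 0.98, edgeR adjusted p = 0.390), or -1.65 without WT library 1. Usp5, which disassembles unanchored chains, had 15, 104 and 67 counts in DKO and 2, 192 and 8 in WT (-1.16, SE 1.40). The immune signalling members Usp4, Usp18 and Usp38 lay above 0 under each scaling tried, at 1.18 (SE 1.27), 0.18 (SE 1.06) and 0.95 (SE 1.27), all with overlapping groups. Usp18 turned below 0 without WT library 1, WT library 2 or DKO library 3, and the median of the 3, at 0.95, was 3.81 without WT library 2. Usp18, which removes the ubiquitin-like protein ISG15, had 12, 24 and 36 counts in DKO and 2, 4 and 19 in WT.

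Of the members known for expression in the germline, Usp29 and Usp9y were tested. After TMM scaling both were lower in every DKO library than in every WT library, but with library totals alone the groups of both overlapped. Usp29, an imprinted gene beside Peg3 on chromosome 7, had 2, 12 and 4 counts in DKO libraries 1, 2 and 3 and 7, 139 and 28 counts in WT libraries 1, 2 and 3. The WT libraries spread over a wide range, with means of 11.5 ± 9.35 normalized CPM in DKO and 240 ± 263 in WT (SD, n = 3 each). Usp29 had a log2 fold change of -4.34 (SE 1.28, edgeR adjusted p = 0.390), or -2.91 without WT library 2, and 2676 of its exonic bases are shared with Zim3 and a predicted gene. Usp9y had 7, 13 and 12 counts in DKO and 8, 8 and 9 in WT, so that its value of -0.91 (SE 0.88, edgeR adjusted p = 0.677) came from nearly equal counts in libraries of unequal effective size. The 5 Usp17 genes and Usp26 had at most 12 counts in any library and were not tested.

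The other members named by the rule all overlapped between the groups except Usp45 and Usp31. Usp45, which acts on the repair nuclease subunit ERCC1, had 15, 43 and 29 counts in DKO and 4, 6 and 2 in WT, with no overlap (log2 fold change 1.61, SE 0.94, edgeR adjusted p = 0.481). It passed the filter on low counts through DKO alone. Usp9x, the X-linked enzyme that stabilises Mcl1, had 79, 25 and 52 counts in DKO and 6, 5 and 14 in WT. WT library 3 lay above DKO library 2 after scaling (1.39, SE 0.99, edgeR adjusted p = 0.558, or 2.16 without WT library 3). Usp37, which acts on cyclin A, had 60, 68 and 57 counts in DKO and 2, 31 and 10 in WT, and WT library 2 lay within the DKO range (1.01, SE 1.00, edgeR adjusted p = 0.686, or 2.00 without it). Usp54 had 32, 65 and 45 counts in DKO and 133, 79 and 9 in WT, with WT library 3 below all DKO libraries. Its value of -1.90 (SE 1.16, edgeR adjusted p = 0.495) became -0.86 without WT library 1. Usp31 had 96, 57 and 67 counts in DKO and 58, 66 and 95 in WT, which after scaling placed all DKO libraries below all WT libraries (-1.22, SE 1.04, edgeR adjusted p = 0.629).

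Among the abundant members, Usp36 varied widely between libraries and Usp24 did not. Usp36, a nucleolar enzyme, had 425, 88 and 178 counts in DKO libraries 1, 2 and 3 and 227, 10 and 8 counts in WT libraries 1, 2 and 3. Library 1 was the highest in both groups, and the log2 fold change of 0.21 (SE 1.54, edgeR adjusted p = 0.973) was 3.66 without WT library 1 and -0.60 without DKO library 1. Usp24 had 114, 110 and 191 counts in DKO and 43, 88 and 37 in WT, with means of 277 ± 85.3 normalized CPM in DKO and 253 ± 76.9 in WT (SD, n = 3 each). Its groups overlapped, and the fold change on the log2 scale was 0.13 (SE 1.03, edgeR adjusted p = 0.977). Per kilobase of exon, the highest members were Usp36, Usp48 and Usp39 in DKO (63.6, 59.6 and 49.0 normalized CPM per kilobase). In WT they were Usp2, Usp20 and Usp5 (168, 69.5 and 57.3), and in each of these 1 WT library held over 50% of the summed normalized CPM.

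Deubiquitinases of other families, 21 genes of which 12 were tested, had 8 values above 0 and 4 below, with 0 past the edgeR test (median 0.11, or -0.03 with the size factors of DESeq2 and -0.0063 to 0.55 with 1 library left out). Otud5, an ovarian tumour domain enzyme, had 13, 20 and 27 counts in DKO and 0, 0 and 1 in WT, a scaled ratio of 25.6 (95% counting interval 4.42 to 1028, on 1 WT count). Otud5 had a fitted log2 fold change of 4.35 (SE 1.34, edgeR adjusted p = 0.390) and passed the filter on low counts through DKO alone. Josd1, of the Josephin family, had 35, 21 and 101 counts in DKO and 2, 2 and 7 in WT (2.51, SE 1.10, edgeR adjusted p = 0.404). Stambpl1 had 29, 9 and 17 in DKO and 15, 25 and 24 in WT, at -1.38 (SE 0.94, edgeR adjusted p = 0.539). In each of these 3, named for the smallest p, the groups did not overlap once scaled. Over all genes this held for 12.8% higher and 6.39% lower in DKO. Of 10 cofactors of the family 4 were tested, 1 above 0 and 3 below (median -0.42). This turned to 3 above and 1 below with library totals alone (median 0.33), and the median was 0.26 without WT library 3. Stam2, an endosomal partner of Usp8, had 26, 49 and 47 counts in DKO and 0, 12 and 6 in WT (1.59, SE 1.13, edgeR adjusted p = 0.558), and Stam and Hgs, of the same complex, were too sparse to be tested. The polyubiquitin gene Ubb had 0 counts in every library. It holds repeated copies of the ubiquitin sequence, and how reads with several matches were treated is not stated, so this count is uncertain. Of the genes for ubiquitin and its activating enzymes, Uba6 and Uba7 were tested, at -1.29 (SE 0.97) and 0.42 (SE 1.24).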

How the data were processed

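RNA was measured in 3 DKO and 3 WT libraries. The authors deposited 1 table of raw counts per gene symbol, not normalized. Per the submitters' processing notes, the build was mm10 and the tools were R 3.6.3, edgeR, STAR and CASAVA, without roles. For the counting tool, its strand setting and its annotation, no source used here gives a name. All columns matched a sample by name (0 unmatched).

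The main test was the robust quasi-likelihood F test of edgeR 4.0.16 in R 4.3.3 with limma 3.58.1, after filterByExpr with a minimum count of 10, and TMM scaling, over all 6 libraries without covariates. Benjamini-Hochberg adjustment ran over all 8895 tested genes (threshold 0.05). A standard error is |log2 fold change| over the root of F. Counting intervals are exact binomial intervals at 95% that cover counting error only, not the spread between libraries. A count of 0 is read against 3 counts. DESeq2 1.42.0, limma-voom, other scalings, no filter, the replicate number as a block and each library left out in turn were alternatives. The edgeR steps were run on simulated data, with success required only at a spread between libraries far below that found here. The common biological coefficient of variation here was 0.915, so that check does not show what the test can find in these libraries. Symbols were placed with GENCODE M21, and promoters are from RefSeq (GRCm38.p6). Python 3.11.15 was used for these steps.

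The members and lists were chosen with earlier results of these data known. Values in every library are given for Usp39, Usp8, Usp15 and Usp30, for the 8 tested members in each direction with the smallest p, for the 6 with the highest mean, and for members with 0 counts in 1 group and at least 20 in the other, which were 0. In pathway lists, up to 3 members with the smallest p were named; Pink1, Eftud2, Stam, Hgs, Ubb and the members Usp3, Usp4, Usp5, Usp7, Usp9y, Usp14, Usp18, Usp22, Usp38, Usp42, Usp44 and Usp51 were named for their place in a list or after their values were seen. 1 listed gene is not reported here.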

Additional observations from a re-analysis of the deposited data

How the results depend on the processing

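No call by edgeR was made over the 40 members in any scaling, with the replicate block, or with a library left out. With no filter on low counts, edgeR called 22 of all genes higher and 108 lower and 0 members. DESeq2 called 218 of all genes higher and 383 lower. Among the members other than Usp39 it called 1 higher (Usp1) and 4 lower, at fold changes close to those of edgeR. Members with groups that did not overlap, Usp39 included, numbered 13 higher and 1 lower of 40 with library totals alone (23.8% and 2.51% of all genes), 2 lower with upper quartile scaling (4.96%), and 10 higher of all 58 symbols with no filter on low counts (11.6%). With 1 library left out they ranged over 7 to 14 higher (17.2% to 23.6% of all genes) and 4 to 7 lower (8.17% to 11.7%). The median of the members was 0.90 with library totals alone and ranged over 0.052 to 0.67 with 1 library left out, and the difference between the mitophagy-linked and other members ranged over -2.64 to -0.034, values that hold 2 or, where Usp15 passed the filter, 3 mitophagy-linked members. With Usp8 and Usp30 alone it ranged over -3.24 to -2.02.

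Of the 20 members named by the rule and tested, 4 changed sign in some setting. These were Usp8 at 0.16 with library totals alone, Usp24 at -0.0028 with the size factors of DESeq2 and -0.0038 in DESeq2, and, with 1 library left out, Usp8 (-1.05 to 0.67), Usp28 (-2.80 to 0.79), Usp36 (-0.60 to 3.66) and Usp24 (-0.040 to 0.44). Over all 40 members tested, 17 changed sign in some setting. For the median of all genes, sign and size moved with scaling too. The cause of these changes was not tested. Of the 20 named members tested, 15 moved by over 1.5-fold when 1 library was left out.

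Same-numbered libraries of the groups correlated at 0.0240, 0.0308 and 0.0379 in their deviations from the group means. Libraries with different numbers correlated at -0.0273 to -0.00441, so each library correlated best with its own number. Values this small cannot show whether the numbers pair the libraries, and the labels do not state it. With the replicate block, 0 members and 0 of all genes were called, the median of the members was 0.52 and the difference of the mitophagy-linked members was -2.22. The low depth limits what can be seen: 1 count was worth up to 5.25 normalized CPM in a WT library.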
